A study of Homo sapiens with 4 samples.

Results

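The MHC class II genes HLA-DRA, HLA-DRB1, HLA-DPA1, HLA-DPB1, HLA-DQA1, HLA-DQB1, HLA-DMA and HLA-DMB, together with CD74 and CIITA, were examined in RNA-seq data of MV4-11 cells with and without knockdown of ANP32B. These 10 genes were chosen by name, and rows of the deposited table were matched to them through their Ensembl identifiers. Of the 18885 genes in the table, 5 were members of this set, namely HLA-DRA, HLA-DRB1, HLA-DMA, CD74 and CIITA. HLA-DPA1, HLA-DPB1, HLA-DQA1, HLA-DQB1 and HLA-DMB were not analysed here. MV4-11 is an established human acute myeloid leukemia (AML) line of monocytic type that carries a KMT2A rearrangement and a FLT3 internal tandem duplication, and both groups share this background. For the control group (NC, n = 2 libraries) the labels give no shRNA and no treatment. The methods of the study, however, speak of an sh-NC control. The knockdown group (sh-ANP32B, n = 2 libraries) expressed an shRNA against ANP32B from a lentivirus, and infected cells were selected with puromycin. The columns of this group bear the mark S3, the labels do not name the hairpin, and the comparison is limited to a single cell line. If the control cells carried no vector, loss of ANP32B, infection and selection cannot be told apart.

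MHC class II molecules are pairs of an alpha and a beta chain that present peptides from endocytosed protein to CD4+ T cells. Their expression is normally restricted to B cells, dendritic cells, monocytes, macrophages and thymic epithelium, although AML blasts often carry HLA-DR. The chains assemble in the endoplasmic reticulum around the invariant chain (CD74), which is then cleaved in endosomes so that HLA-DM can exchange its last fragment for a peptide. Transcription of the whole group depends on CIITA, a coactivator that does not bind DNA itself but is recruited by RFX, NF-Y and CREB proteins sitting on the conserved X and Y boxes of class II promoters.

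Values are TPM (read density over transcript length, scaled to a common total in each library). Levels of different genes can therefore be set side by side, except where reads of a gene have several places in the genome. Fold changes are differences of log2(TPM + 1) between sh-ANP32B and NC, tested with limma on the 16937 genes that reached 1 TPM in at least 2 libraries, with Benjamini-Hochberg adjustment over all of them. A gene was called when its adjusted p was below 0.05 and its log2 fold change lay beyond 0.5 in either direction. ANP32B itself stood at 358 and 364 TPM in NC and at 54.1 and 49.3 TPM in sh-ANP32B, so that 14.3% of the control level was left (log2 fold change -2.78, SE 0.06, limma adjusted p = 2.89e-05). Library totals lay between 997271 and 998546 TPM, and the median absolute difference between replicates was 0.112 in NC and 0.113 in sh-ANP32B on the log2 scale. Over the whole tested table the median log2 fold change was 0.08.

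Promoters of HLA-DRB1, HLA-DRB5, HLA-DMA and CD74 are shown first. The X and Y boxes are where RFX, NF-Y and CIITA meet the class II genes. The promoter of HLA-DOB, a gene also measured, is not printed. The stretches are the 200 bases just before the transcription start in RefSeq (GRCh38.p14), read along the gene from 5′ to 3′. They cover chr6:32589849-32590048 for HLA-DRB1, chr6:32530288-32530487 for HLA-DRB5, chr6:32953098-32953297 for HLA-DMA and chr5:150412911-150413110 for CD74, all on the minus strand. Capitals mark matches to an X1-like motif (GCAACNGNT or the overlapping AACNGNTG) or to the Y box (CTGATTGG, which holds the core GATTGG).
HLA-DRB1: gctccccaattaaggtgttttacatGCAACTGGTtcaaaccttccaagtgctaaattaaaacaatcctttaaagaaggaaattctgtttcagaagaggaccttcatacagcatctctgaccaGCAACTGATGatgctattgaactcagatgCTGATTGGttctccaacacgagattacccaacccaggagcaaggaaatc
HLA-DRB5: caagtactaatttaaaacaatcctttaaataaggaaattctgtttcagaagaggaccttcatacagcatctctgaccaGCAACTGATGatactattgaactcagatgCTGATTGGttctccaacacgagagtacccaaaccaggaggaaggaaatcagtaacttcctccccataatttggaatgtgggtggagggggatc
HLA-DMA: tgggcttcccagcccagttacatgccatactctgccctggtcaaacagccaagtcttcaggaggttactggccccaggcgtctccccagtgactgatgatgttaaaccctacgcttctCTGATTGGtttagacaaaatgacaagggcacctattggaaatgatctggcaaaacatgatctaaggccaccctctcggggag
CD74: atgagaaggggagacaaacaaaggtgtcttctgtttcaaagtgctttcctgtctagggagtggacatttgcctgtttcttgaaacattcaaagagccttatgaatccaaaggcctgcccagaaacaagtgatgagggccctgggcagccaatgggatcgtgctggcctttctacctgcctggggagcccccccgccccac

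The promoters of HLA-DRB1 and HLA-DRB5 had the same arrangement, with AACTGATG followed 21 bases later by GATTGG on the gene's own strand. Counted from the start site, AACTGATG began at -76 and GATTGG at -47 in HLA-DRB1, and at -120 and -91 in HLA-DRB5. Lined up on these motifs, the stretches of both genes were the same at 149 of 156 bases (95.5%). A further match to GCAACNGNT lay at -175 in HLA-DRB1. In HLA-DMA only the Y box was matched, at -82. In CD74 none of the motifs searched was matched in this window, which does not show that other forms of the boxes are absent.

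How rare this arrangement is was counted over all 35116 promoters of the table, each taken from 250 bases before to 50 bases after the start, on both strands. GCAACNGNT was found in 2.26% of them, AACNGNTG in 9.08%, GATTGG in 15.1% and CTGATTGG in 3.97%. AACNGNTG followed by GATTGG on the same strand, with 12 to 32 bases between them, was found in 23 promoters (0.0655%), among them those of HLA-DRB1 and HLA-DRB5. Of the members, 8 matched 9 promoter entries of the table, of which 5 held GATTGG, 3 held CTGATTGG, 3 held AACNGNTG and 1 held the combination. HLA-DRA and CIITA had no entry in this table. A match is a run of letters and not a measured binding site.

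The class II chain genes called higher were those of HLA-DR, and HLA-DOB was the only other chain gene tested. HLA-DP and HLA-DQ were not analysed here, so a rise particular to HLA-DR cannot be read from these data. HLA-DRA and HLA-DRB1 were called higher in sh-ANP32B, CD74 rose by less than the fold limit, and CIITA did not pass the test. Of the 4 members tested, 2 were called higher and 0 lower, where 17.9% of all genes tested were called higher and 10.1% lower. HLA-DRA passed the filter on low values only through the sh-ANP32B libraries, so it had to differ, and this count is a description only. The median log2 fold change of the 4 tested members was 0.98. At an unadjusted p below 0.05 with limma, 3 were higher and 0 lower. In bulk RNA, more cells expressing a gene and more RNA per cell cannot be told apart.

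HLA-DRB1 (ENSG00000196126, chr6:32577902-32589848, minus strand) encodes the common polymorphic beta chain of HLA-DR. It measured 28.0 and 26.5 TPM in NC and 75.4 and 84.8 TPM in sh-ANP32B. Both knockdown libraries were far above both control libraries, and the replicates of each group lay close together. The mean was 27.3 ± 1.06 TPM (SD, n = 2) in NC and 80.1 ± 6.61 TPM (SD, n = 2) in sh-ANP32B, a ratio of 2.94. Its log2 fold change was 1.52 (SE 0.08, 95% interval 1.33 to 1.71), and it passed limma's test with an adjusted p of 1.58e-04. Only 1.97% of the genes tested had a higher log2 fold change.

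HLA-DRA (ENSG00000204287, chr6:32439878-32445046, plus strand), which encodes the nearly invariant alpha chain that pairs with every HLA-DR beta chain, was listed at a much lower level. It measured 0.609 and 0.736 TPM in NC and 5.08 and 3.03 TPM in sh-ANP32B. The groups did not overlap, but relative to their mean the knockdown libraries differed between themselves by more than those of HLA-DRB1 did. The mean was 0.673 ± 0.0892 TPM (SD, n = 2) in NC and 4.06 ± 1.45 TPM (SD, n = 2) in sh-ANP32B, a ratio of 6.03. On the log2(TPM + 1) scale, which understates the change of low genes, the fold change was 1.57 (SE 0.26, 95% interval 0.92 to 2.22, limma adjusted p = 0.00561). With a pseudocount of 0.1 TPM in place of 1 it was 2.39, more than 1.5 times as large. As both chains are needed in equal number for HLA-DR, their ratio was followed as well. By the listed levels, there was 45.9 and 36.0 times as much HLA-DRB1 as HLA-DRA in NC, and 14.9 and 27.9 times as much in sh-ANP32B.

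The levels listed for HLA-DRA have to be read beside the structure of the reference, since hg38 holds several alternate haplotypes of this region. Every 100-base word of the HLA-DRA exons (100% of 749 words) was also found on an alternate contig of chromosome 6, and 7 such contigs held at least 1 of them. For HLA-DRB1 the share was 4.89%, for HLA-DRB5 3.01%, and for CD74 and CIITA 0%. It was 90.0% for HLA-DMA, and for the members not analysed here it was 100% in HLA-DPA1 and HLA-DPB1, 97.7% in HLA-DMB, 2.5% in HLA-DQA1 and 1.02% in HLA-DQB1. With words of 50 bases the share was 22.9% for HLA-DRB1, 17.2% for HLA-DRB5, 1.44% for CD74 and 0.265% for CIITA. The sources used here do not give how reads with several places in the genome were counted. The part of this in the levels was not tested.

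**Figure D1:**
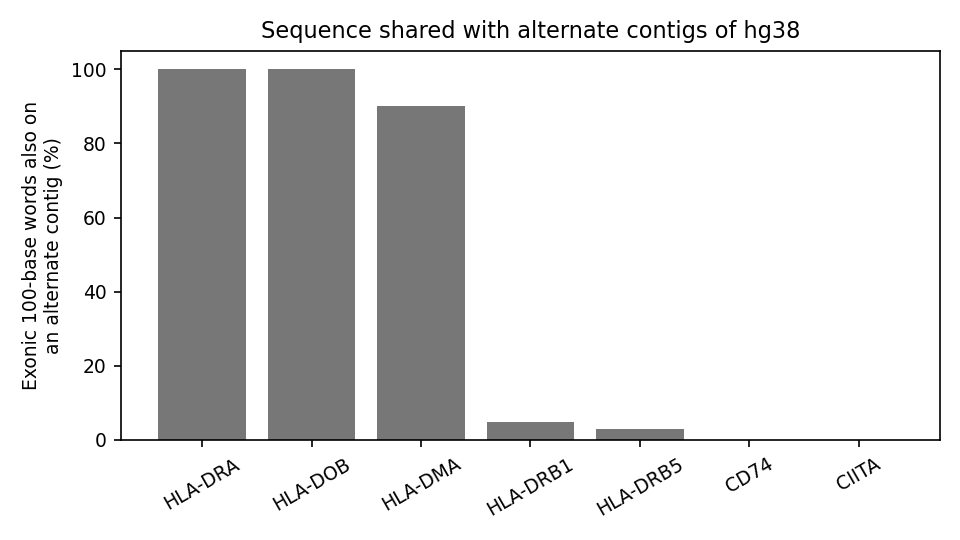
Share of the 100-base words of each gene's exons (percent, vertical axis) that also occur on an alternate contig of the same chromosome in hg38, for the class II genes, CD74 and CIITA in the table. HLA-DRA and HLA-DOB stand at 100%, HLA-DMA at 90.0%, and HLA-DRB1 and HLA-DRB5 at 4.89% and 3.01%.

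HLA-DMA (ENSG00000204257, chr6:32948613-32969094, minus strand), the alpha chain of the HLA-DM peptide exchanger, was too low for the test. It measured 0.479 and 0.924 TPM in NC and 1.81 and 0.713 TPM in sh-ANP32B. The groups overlapped, and the first sh-ANP32B library alone was above 1 TPM. Fitted without the filter on low values, its log2 fold change was 0.38 with a limma adjusted p of 0.391. Its exons share 160 bases with ENSG00000248993 on the same strand and 55 bases with BRD2 on the opposite strand, and whether strand was used in the counting is not given in the sources used here.

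CD74 (ENSG00000019582, chr5:150401637-150412969, minus strand) was by far the most abundant member. It measured 526 and 518 TPM in NC and 705 and 716 TPM in sh-ANP32B, a tight pair of values in each group with a clear gap between them. The mean was 522 ± 5.78 TPM (SD, n = 2) in NC and 710 ± 7.49 TPM (SD, n = 2) in sh-ANP32B, a ratio of 1.36. The log2 fold change of 0.44 (SE 0.03, 95% interval 0.36 to 0.53) passed the test with a limma adjusted p of 3.94e-04 but lay inside the fold limit of 0.5. In the tested table, 25.3% of the genes had a higher log2 fold change.

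CIITA (ENSG00000179583, chr16:10866222-10943021, plus strand), the coactivator of the group, was detected in all 4 libraries. It measured 11.4 and 11.98 TPM in NC and 13.9 and 13.5 TPM in sh-ANP32B. Both knockdown libraries were above both control libraries, yet the gap was small. The mean was 11.7 ± 0.401 TPM (SD, n = 2) in NC and 13.7 ± 0.268 TPM (SD, n = 2) in sh-ANP32B, a ratio of 1.17. The log2 fold change of 0.21 (SE 0.10, 95% interval -0.02 to 0.45) did not pass limma's test (adjusted p = 0.121), and the interval ends below the fold limit. A missed threshold does not show that CIITA was at the same level in both groups. CIITA shares 2424 exonic bases with DEXI on the opposite strand and 2378 with ENSG00000280153 on its own strand.

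**Figure D2:**
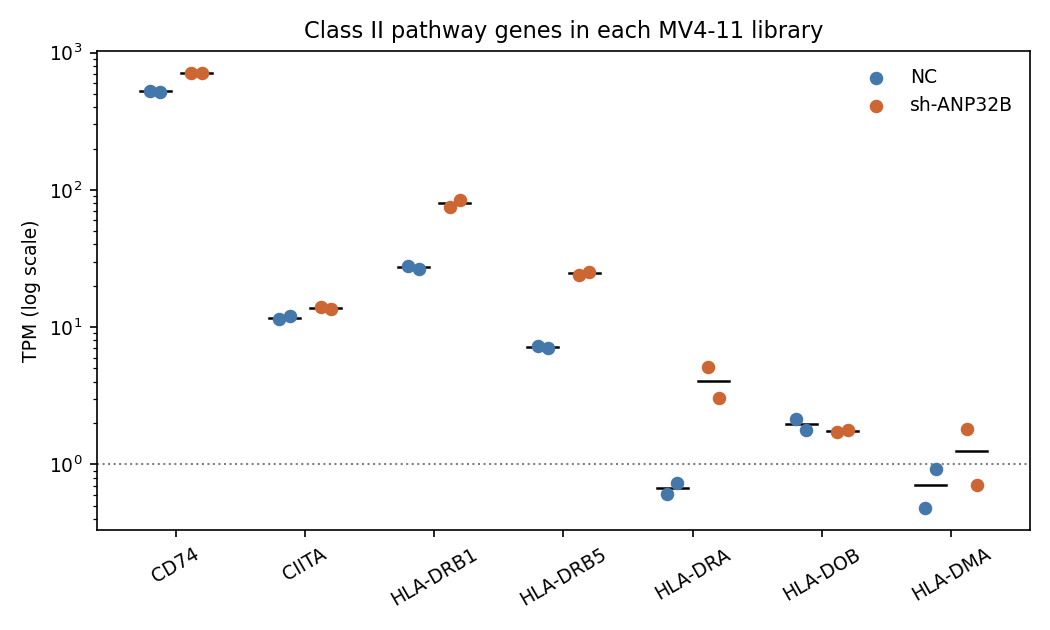
TPM on a log axis of the class II genes, CD74 and CIITA in the 2 NC and the 2 sh-ANP32B libraries of MV4-11 cells, with a point for each library, a bar for each group mean and a dotted line at 1 TPM. The groups lie apart for HLA-DRB1, HLA-DRB5, HLA-DRA, CD74 and CIITA, and overlap for HLA-DOB and HLA-DMA.

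In all 4 libraries CD74 had the highest level of the members, followed by HLA-DRB1. CIITA came next, with the listed levels of HLA-DRA and HLA-DMA below it. Of their 100-base words, 100% and 90.0% also lay on alternate contigs, against 0% for CIITA. How such reads were counted is not given, so the place of HLA-DRA and HLA-DMA in this order is uncertain. HLA-DRA and HLA-DMA did not differ beyond their spread in NC, where HLA-DRA lay between the HLA-DMA values. In sh-ANP32B both HLA-DRA values were above both HLA-DMA values.

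Ratios within a library do not depend on how the library was scaled, and by them the members did not shift by the same factor. There was 18.8 and 19.5 times as much CD74 as HLA-DRB1 in NC, against 9.34 and 8.44 times in sh-ANP32B. HLA-DRB1 stood at 2.45 and 2.21 times the level of CIITA in NC and at 5.43 and 6.27 times in sh-ANP32B. CD74 stood at 46.1 and 43.2 times the level of CIITA in NC and at 50.7 and 52.9 times in sh-ANP32B. The groups did not overlap in any of these ratios, and the last one shifted least.

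Of 11 other class II genes and pseudogenes, 2 were in the table, and the rest were not analysed here. HLA-DRB5 (ENSG00000198502, chr6:32517353-32530287, minus strand), a second HLA-DR beta chain that only some haplotypes carry, measured 7.32 and 7.09 TPM in NC and 24.1 and 25.4 TPM in sh-ANP32B. It was called higher, with a log2 fold change of 1.65 (SE 0.09, 95% interval 1.42 to 1.88, limma adjusted p = 2.00e-04). There was 3.82 and 3.74 times as much HLA-DRB1 as HLA-DRB5 in NC and 3.13 and 3.34 times as much in sh-ANP32B, a ratio that was lower in both knockdown libraries. Reads of both genes are hard to separate. Of the 50-base words of HLA-DRB5, 10.4% occurred elsewhere in the class II region of the primary chromosome, and of those of HLA-DRB1, 6.02% did. As the HLA alleles of the line were not read, the values of HLA-DRB1 and HLA-DRB5 are both uncertain. Those of HLA-DRB5 are no independent support for those of HLA-DRB1.

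HLA-DOB, the beta chain of HLA-DO, which restrains HLA-DM mainly in B cells, measured 2.14 and 1.78 TPM in NC and 1.71 and 1.79 TPM in sh-ANP32B. The groups overlapped, and the log2 fold change of -0.11 (95% interval -0.59 to 0.38) did not pass limma's test (adjusted p = 0.693). It shares 599 exonic bases with the readthrough locus ENSG00000250264 on its own strand.

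The class II genes of chromosome 6 lie in a region of 649.8 kb between the first and the last member. Other protein-coding genes of this region were set beside them, 7 in all, of which 6 were tested. With limma 0 were called higher and 1 lower, the same counts as at an unadjusted p below 0.05. The shares called among all genes tested were 17.9% higher and 10.1% lower. PSMB9, an immunoproteasome subunit, fell from 7.07 and 4.31 TPM in NC to 2.94 and 1.18 TPM in sh-ANP32B (log2 fold change -1.16, limma adjusted p = 0.0426), a call that was lost when the first NC or the second sh-ANP32B library was left out or when the pseudocount was 0.1 TPM. The peptide transporter subunit TAP1 had a log2 fold change of 0.37 (limma adjusted p = 0.312) and TAP2 of -0.38 (adjusted p = 0.159). PSMB8, another immunoproteasome subunit, was at 0.33 (adjusted p = 0.152), and BRD2, a chromatin reader, at -0.13 (adjusted p = 0.191). All of these lie on the alternate haplotypes as well, with 93.5% to 100% of their 100-base words found there.

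**Figure D3:**
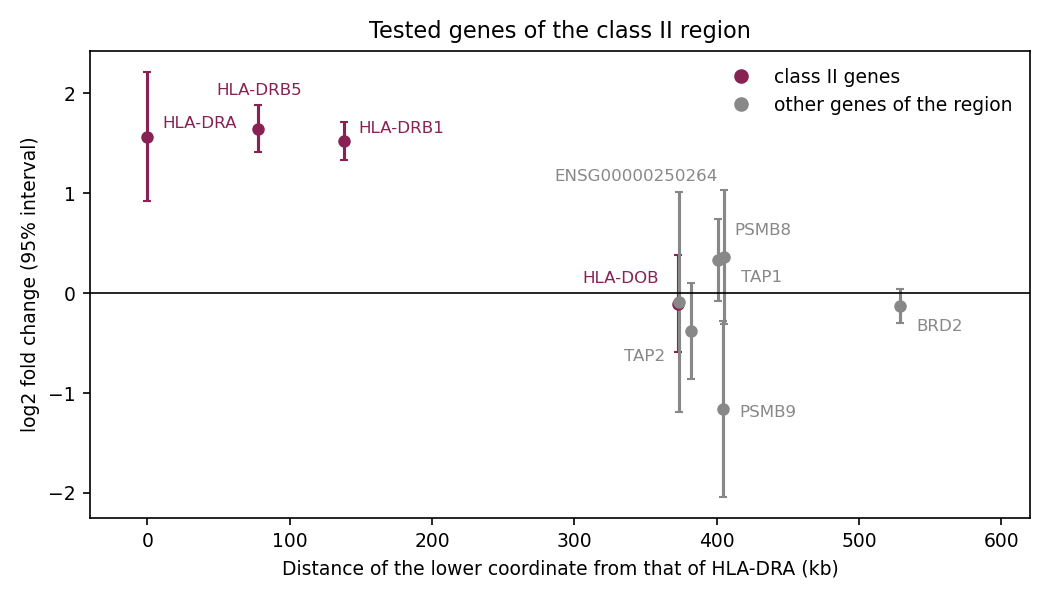
Log2 fold change of TPM + 1 in sh-ANP32B against NC (vertical axis, bars are 95% intervals) for the tested genes of the class II region, placed by the distance of their lower coordinate from that of HLA-DRA (kb, horizontal axis). HLA-DRA, HLA-DRB5 and HLA-DRB1 at the left have intervals from 0.92 upward, whereas the intervals of the other genes reach or cross 0 except that of PSMB9, which lies below it.

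Genes for the proteins that hold CIITA on class II promoters were expressed in all 4 libraries. All 7 were tested with limma, and 0 were called higher and 1 lower, against 17.9% and 10.1% of all genes tested. At an unadjusted p below 0.05, 2 of the 7 were higher and 3 lower. Their median log2 fold change was -0.02 against 0.08 for all genes. RFXAP, a subunit of the RFX complex, measured 17.3 and 19.7 TPM in NC and 11.9 and 10.5 TPM in sh-ANP32B, and was called lower (log2 fold change -0.68, SE 0.11, limma adjusted p = 0.00588). Its partner RFX5, the DNA-binding subunit, measured 67.9 and 71.2 TPM in NC and 87.9 and 81.0 TPM in sh-ANP32B, a log2 fold change of 0.28 inside the fold limit (adjusted p = 0.0149), and it missed the threshold under median-of-ratios scaling and without the first library of either group. RFXANK, the ankyrin-repeat subunit, did not pass (0.12, adjusted p = 0.0864).

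Of the NF-Y subunits that bind the Y box, NFYA and NFYB fell inside the fold limit, with log2 fold changes of -0.32 (limma adjusted p = 0.00667) and -0.43 (adjusted p = 0.0129). NFYB missed the threshold without the first NC library, and passed the fold limit without the second (-0.51) and under median-of-ratios scaling (-0.52). Their values were 57.4 and 55.3 TPM against 45.7 and 44.5 TPM for NFYA, and 23.8 and 21.3 TPM against 16.8 and 16.1 TPM for NFYB. NFYC and CREB1, the latter a binder of the neighbouring X2 box, did not pass, at 0.11 and -0.02. The genes of this group thus moved in both directions while HLA-DRA and HLA-DRB1 rose.

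Inducers and repressors of CIITA were examined next. Of 16, 15 were tested, and 6 were called higher and 1 lower, against 17.9% and 10.1% of all genes tested. The median log2 fold change of the 15 was 0.47. Each of the 6 calls was lost under at least 1 alternative processing. IFNGR1 and JAK2, the ligand-binding receptor chain and a kinase of the interferon gamma pathway that switches on CIITA, were called higher. IFNGR1 measured 39.8 and 41.8 TPM in NC and 63.1 and 57.9 TPM in sh-ANP32B (log2 fold change 0.56, limma adjusted p = 0.00174), and JAK2 measured 6.69 and 6.88 TPM against 10.6 and 10.8 TPM (0.59, adjusted p = 0.00915). Both lay inside the fold limit under median-of-ratios scaling, IFNGR1 also without the first sh-ANP32B library and JAK2 also with quantile normalization (0.42). IRF1, an interferon-induced factor that acts at the CIITA promoter, did not pass (0.26, limma adjusted p = 0.137). The negative regulator SOCS1 did not pass either (0.51, adjusted p = 0.0715).

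Among the lineage factors, SPI1 (PU.1), a myeloid master regulator that binds the CIITA gene, measured 250.3 and 257 TPM in NC and 361 and 361 TPM in sh-ANP32B. It was called higher just beyond the fold limit (log2 fold change 0.51, limma adjusted p = 3.35e-04), and it lay inside the limit under median-of-ratios scaling (0.41) and without the first NC library (0.49). USF1, a factor of the interferon-responsive CIITA promoter, was called higher at 0.52 (adjusted p = 0.00138) and stood at 0.43 under that scaling, at 0.46 without the first NC library and at 0.49 without the second sh-ANP32B library. IRF8, a partner of SPI1, measured 291 and 315 TPM in NC and 266 and 364 TPM in sh-ANP32B, so that its groups overlapped (0.04, limma adjusted p = 0.846).

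Repressors of CIITA were also among the genes that rose. PRDM1 (BLIMP-1), which silences CIITA in plasma cells, measured 0.977 and 0.570 TPM in NC and 2.02 and 2.89 TPM in sh-ANP32B (log2 fold change 0.96, limma adjusted p = 0.0254), and like HLA-DRA it passed the filter only through sh-ANP32B. BCL6, a germinal centre repressor, was called higher at 0.52 (adjusted p = 0.0174), a call lost without either NC library, without the second sh-ANP32B library, with quantile normalization and under median-of-ratios scaling. The call of PRDM1 was lost with quantile normalization and without the second library of either group. MYBL2, a proliferation factor, was the gene of this list that was called lower, from 166 and 168 TPM in NC to 82.7 and 80.2 TPM in sh-ANP32B (-1.03, limma adjusted p = 1.08e-04).

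Among genes that process the invariant chain and load or turn over class II molecules, 7 rose beyond the fold limit that CD74 did not reach. Of 14, 10 were tested with limma, 7 were called higher and 0 lower (8 and 0 at an unadjusted p below 0.05), where 17.9% of all genes tested were called higher. Their median log2 fold change was 1.05 over the 10 tested. CTSS (cathepsin S), the protease that trims the invariant chain in antigen-presenting cells, measured 52.9 and 50.9 TPM in NC and 148 and 142 TPM in sh-ANP32B (log2 fold change 1.47, limma adjusted p = 7.08e-05). IFI30 (GILT), which reduces disulfide bonds of antigens in endosomes, measured 81.3 and 81.7 TPM in NC and 175 and 184 TPM in sh-ANP32B (1.13, adjusted p = 9.93e-05). SPPL2A, the intramembrane protease that clears the last fragment of CD74, measured 9.26 and 8.001 TPM in NC and 18.6 and 17.9 TPM in sh-ANP32B (1.00, adjusted p = 0.00132). In each of them the groups lay far apart. CTSD and CTSB, general lysosomal proteases, and CD63 and CD82, tetraspanins of class II compartments, completed the 7, with log2 fold changes of 1.47, 1.08, 1.03 and 2.03. CTSH, another lysosomal protease, did not pass, at 0.04.

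MARCHF1 and MARCHF8, ubiquitin ligases that send class II molecules to lysosomes, did not pass the test. MARCHF1 had a log2 fold change of 0.01 (95% interval -0.37 to 0.39, limma adjusted p = 0.971) and MARCHF8 of 0.38 (95% interval 0.05 to 0.71, adjusted p = 0.0618).

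Presentation to T cells also needs costimulation, and of 11 genes for such ligands 7 were tested. Of these, 4 were called higher and 0 lower (5 and 0 at an unadjusted p below 0.05, limma). Among all genes tested, 17.9% were called higher and 10.1% lower. CD86, the ligand of CD28, measured 0.215 and 0.263 TPM in NC and 3.72 and 3.41 TPM in sh-ANP32B (log2 fold change 1.88, limma adjusted p = 0.00126), and it passed the filter only through sh-ANP32B. The adhesion molecule ICAM1 measured 20.4 and 23.0 TPM in NC and 37.9 and 38.5 TPM in sh-ANP32B (0.79, adjusted p = 0.00106). TNFSF9 (4-1BB ligand) and TNFSF4 (OX40 ligand) were called higher at 0.66 and 0.88, the latter call being lost under quantile normalization and without the second library of either group. CD83, CD58 and ICOSLG did not pass, at 0.26, 0.25 and 0.02. CD80, CD40, CD274 and PDCD1LG2 were not analysed here.

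**Figure D4:**
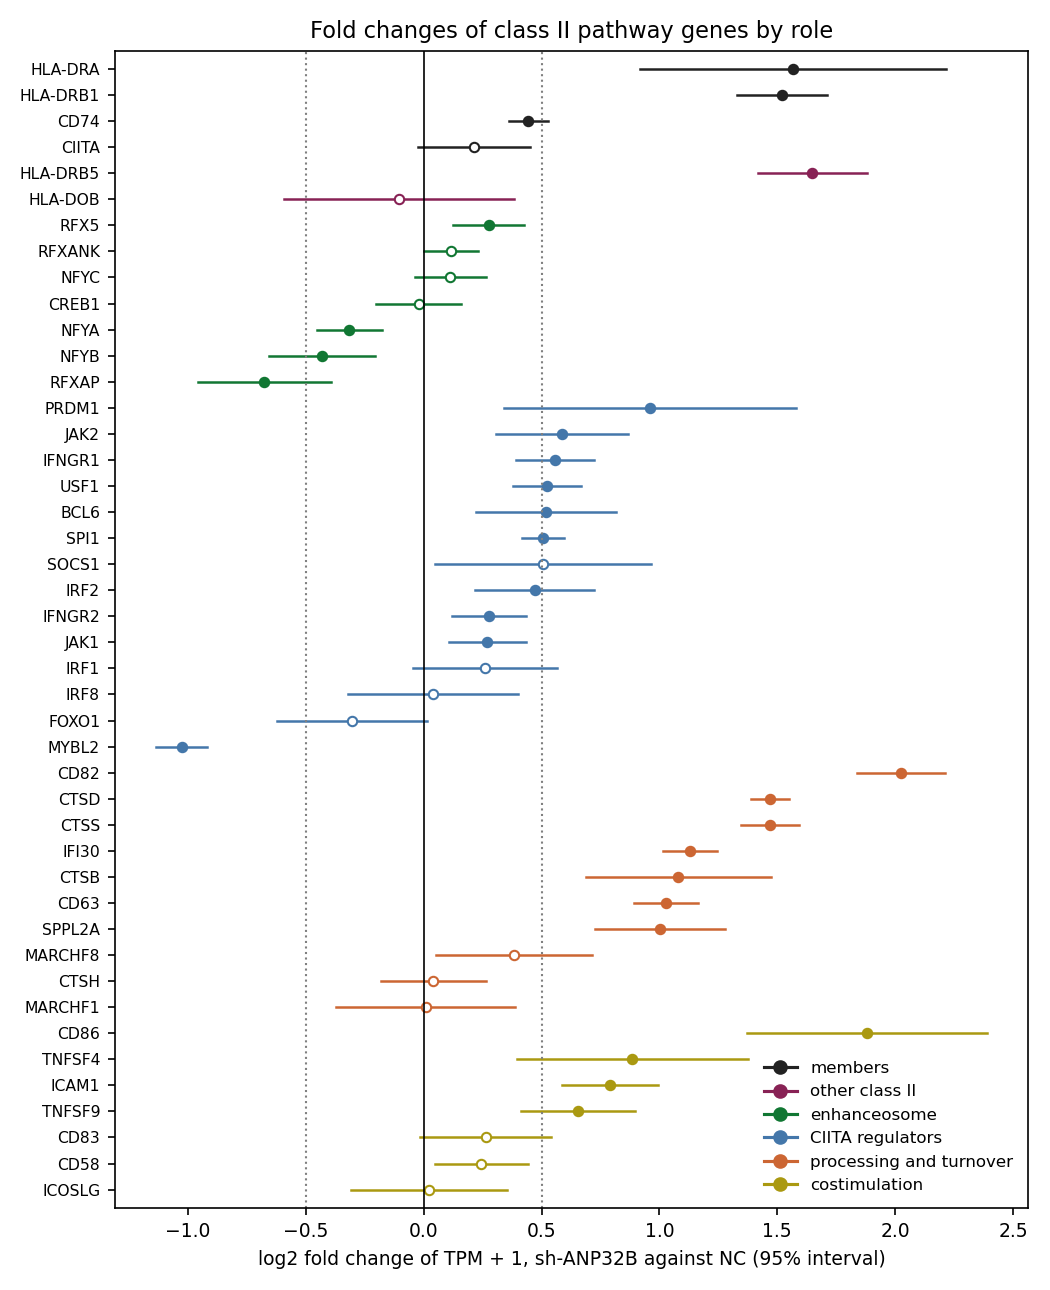
Log2 fold change of TPM + 1 in sh-ANP32B against NC with 95% intervals (horizontal axis) for the tested members and genes tested in 5 related lists, coloured by role. Filled points have an adjusted p below 0.05 and dotted lines mark the fold limit of 0.5, and HLA-DRA, HLA-DRB1 and HLA-DRB5 lie with CTSS and CTSD near 1.5 while CIITA lies at 0.21.

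Class II genes are expressed in several blood lineages, and markers of these were followed beside them. Of 11 monocyte markers 8 were in the table, and their summed level was 517 and 511 TPM in NC and 5590.5 and 5538 TPM in sh-ANP32B, most of it LYZ (lysozyme, 471 and 463 TPM against 5308 and 5260.0 TPM). Of these 8, 7 were called higher, against 17.9% of all genes tested, and 4 of the 7 had passed the filter only through sh-ANP32B. HLA-DR thus rose in the same libraries as the monocytic genes. CD14, FCGR3A and VCAN of that list were not analysed here. Of the B cell markers, PAX5, a factor of B cell identity, measured 3.18 and 3.49 TPM in NC and 2.12 and 1.82 TPM in sh-ANP32B and did not pass the test (log2 fold change -0.55, limma adjusted p = 0.0537). The 3 dendritic cell markers in the table, of 12, summed to 16.8 and 15.0 TPM in NC and 12.6 and 13.8 TPM in sh-ANP32B. They moved in opposite directions, since BATF3, a factor of dendritic cells, was called lower (log2 fold change -0.74, limma adjusted p = 0.00778) and IL3RA, the IL-3 receptor chain, was called higher (0.94, adjusted p = 0.0121), the latter having passed the filter only through sh-ANP32B. Of 6 T cell markers CD2 alone was in the table, at 0.521 and 0.442 TPM in NC and 3.62 and 3.63 TPM in sh-ANP32B. The 6 AML blast markers in the table, of 8, summed to 352 and 360 TPM in NC and 429 and 421 TPM in sh-ANP32B, with HOXA9 and FLT3 present in all 4 libraries. This sum and most of the list differed in direction, since the median log2 fold change of the 6 was -0.11. PTPRC (CD45), a gene of all leukocytes, was called higher, from 62.3 and 64.1 TPM to 142 and 141 TPM (log2 fold change 1.15, limma adjusted p = 9.18e-05), and MEIS1, a leukemic homeobox factor, was called lower, from 44.2 and 47.9 TPM to 30.2 and 29.6 TPM (-0.61, adjusted p = 0.00138). None of the markers in the table was listed at 0. The part of cell identity in the change of HLA-DRA and HLA-DRB1 was not tested.

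The genes whose pattern over the 4 libraries was most like that of HLA-DRA were found by the Euclidean distance of log2(TPM + 1) after centring each gene, among the 9636 genes averaging 10 TPM or more. They were SLC39A13-AS1 (distance 0.268), ZBTB47 (0.284), MS4A6A (0.314), TNFSF13 (0.321) and PPP2R5B (0.329). MS4A6A, a membrane protein of the monocyte lineage, measured 12.8 and 11.1 TPM in NC and 45.6 and 36.4 TPM in sh-ANP32B, with the first knockdown library above the second as in HLA-DRA. With 4 libraries in 2 groups, many genes that rise by a like amount have a like pattern.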

How the data were processed

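RNA of MV4-11 cells was sequenced in 4 libraries (2 NC and 2 sh-ANP32B, TruSeq). The authors aligned reads to hg38 with HISAT2 2.0.5, per the submitters' processing notes, and deposited a table of genes by libraries. The unit was read from the deposited values as TPM, since the libraries sum to between 997271 and 998546. The quantifier, the annotation, and the handling of strand and of reads with several locations are not given in the sources used here. TPM keep no read numbers, so depth is unknown and no counting interval can be given. The genes listed had a mean of at least 0.500 TPM. The study called genes with a count test, which TPM cannot enter.

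Symbols and positions came from GENCODE version 44, and 1595 identifiers without a symbol (3.22% to 3.62% of the TPM) kept their identifier. Genes reaching 1 TPM in 2 or more libraries were fitted on log2(TPM + 1) with limma 3.58.1 (lmFit and eBayes with a trend, R 4.3.3), with no covariate, with Benjamini-Hochberg adjustment over all genes. The script was tested on simulated data. Tables, sequence counts and plots were made with Python 3.11.15, numpy 2.4.6, pandas 2.3.3 and matplotlib 3.10.9. Exon words of 50 and 100 bases were compared on both strands between the primary chromosomes and the alternate contigs of hg38. Nothing says that libraries of a group came from separate cultures, so p-values measure the spread between these samples. An exact permutation test of 2 against 2 libraries cannot give a two-sided p below 0.33 and was not used.

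The genes named are all members, the genes of the lists described, the 5 genes nearest to HLA-DRA in pattern, and ANP32B. Members and lists were chosen with earlier results of these data known, and no list was tested as a set. Counts at an unadjusted p have no share over all genes beside them and are a description only. The alternatives were a replicate block, a pseudocount of 0.1 TPM, no filter, at least 1 TPM in every library, quantile normalization, median-of-ratios scaling, each library left out in turn, and other call limits. Some genes of the lists are not reported here by name, although the counts over a list include them.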

Additional observations from a re-analysis of the deposited data

How the results depend on the processing

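HLA-DRA and HLA-DRB1 kept a higher level in sh-ANP32B and an adjusted p below 0.05 (limma) under every alternative in which they were fitted, with log2 fold changes of 1.27 to 2.39 and of 1.42 to 1.60. As HLA-DRA passed the filter only through sh-ANP32B, its persistence is a description only. HLA-DRA left the test when at least 1 TPM was asked of every library, so that 1 member was then called higher. CD74 stayed inside the fold limit of 0.5 (0.35 to 0.50) and CIITA did not pass in any (0.10 to 0.25, adjusted p 0.114 to 0.384).

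The median of the members, 0.98 as reported, was 0.44 without the filter and with at least 1 TPM in every library, 0.91 with quantile normalization, 0.89 with median-of-ratios scaling, and 0.86 to 0.98 with a library left out. Over all genes the median of 0.08 turned to -0.035 with quantile normalization and to -0.0045 with median-of-ratios scaling. The calls over all genes, 3024 higher and 1712 lower, became 2234 and 2215 with quantile normalization and 2430 and 2326 with median-of-ratios scaling. A fold limit of 1 left 1136 higher and 273 lower, and no fold limit gave 4405 higher and 3342 lower. With a library left out, 2357 to 2677 were higher and 1517 to 1680 lower. In the related lists, 18 of 47 tested genes were called higher and 3 lower, against 17.9% and 10.1% of all genes tested. These counts became 14 and 3 with quantile normalization and 13 and 4 with median-of-ratios scaling. A fold limit of 1 left 9 higher, no fold limit gave 5 lower, and leaving out a library gave 15 to 17 higher and 2 to 4 lower.

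Same-numbered libraries shared a number and no pairing, as their deviations from the group means had a correlation of -0.0232. With the replicate number as a block (replicate block), 2 members, 2853 genes in all and 18 list genes were called higher, and 0, 1671 and 3 lower. HLA-DRB1 then had an adjusted p of 0.00129, HLA-DRA of 0.0122, CD74 of 0.00256 and CIITA of 0.172, and the median log2 fold changes were 0.98 and 0.08. Adding the TPM of identifiers on alternate haplotypes to HLA-DRA and its neighbours was planned and not run, because the tables used here do not pair those identifiers with symbols. The depth behind the TPM is unknown, and the levels of HLA-DRA and HLA-DMA lay near the filter.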
